A study of Homo sapiens with 12 samples.

Results

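The immunoproteasome and peptide loading genes were followed across 4 lines of MIA PaCa-2, a human pancreatic carcinoma cell line. The 10 genes were chosen by symbol: PSMB8, PSMB9, PSMB10, PSME1, PSME2, TAP1, TAP2, TAPBP, ERAP1 and ERAP2. They are 10 of the 63086 genes in the deposited table, and all 10 passed the filter of a mean normalised count of at least 10 that left 15987 genes for testing. WT cells were unmodified. The CRISPR Control line had been taken through editing of TIMP1, the gene of the secreted protein TIMP-1, and carried only a silent change. TIMP1 KO 1 and TIMP1 KO 2 were clonal knockout lines made with guides to exon 4. The KO lines are called TIMP-1-deficient here, and WT and CRISPR Control TIMP-1-competent. Every line was grown in the same medium with serum, and each gave 3 libraries that the titles call biological replicates. The comparison asks how these genes differ where TIMP-1 is lost. With 1 culture line per edit, the edit and the history of a clone cannot be told apart.

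The proteasome cuts proteins into peptides with 3 catalytic subunits in its 20S core, and interferon-responsive cells can replace these with the subunits encoded by PSMB8 (in place of PSMB5), PSMB9 (in place of PSMB6) and PSMB10 (in place of PSMB7). PSME1 and PSME2 encode the PA28 activator, a ring that caps the core. TAP1 and TAP2 encode the transporter that carries peptides into the endoplasmic reticulum, TAPBP encodes tapasin, which bridges the transporter to empty class I molecules, and ERAP1 and ERAP2 encode aminopeptidases that trim the peptides there. The loaded molecules are read by T cells, and their level on a tumour cell also bears on recognition by natural killer cells.

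Depth ran from 26908701 to 36093563 reads in genes, and replicate libraries had a Pearson r of 0.990 to 0.993 over genes. TIMP1 RNA was lower in every KO library, at 1136 to 1624, than in any WT or CRISPR Control library, at 2285 to 3837. The carcinoma markers VIM, KRT8, KRT18 and EPCAM were present in every library, whereas CDH1, the gene of E-cadherin, lay at 1151 to 1487 in competent and at 68.6 to 158 in deficient libraries. Leukocytes hold immunoproteasomes without stimulation, so 12 leukocyte markers were read as well. Of these 2 were at 0 in all libraries, and PTPRC, the pan-leukocyte marker, did not exceed 7.46 in any. The summed level of the list was 55.5 to 76.2 in WT, 65.6 to 77.1 for CRISPR Control, 118 to 134 for KO 1 and 246 to 296 for KO 2, most of it CD14 and ITGAM, and its part in the results was not tested.

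RNA of most of these genes was higher in the deficient lines, more so in KO 2 than in KO 1. Against WT, 9 of the 10 genes were higher in KO 2 and 7 in KO 1 by limma (Benjamini-Hochberg adjusted p under 0.05), and none was lower. In bulk RNA, more cells that express a gene and more RNA per cell cannot be told apart. Among all genes tested, 27.1% were called higher and 27.9% lower in KO 2, and 18.0% higher and 17.5% lower in KO 1. With equal library totals in place of the authors' size factors, the KO 2 calls over all genes shifted from 4330 higher and 4461 lower to 5235 and 3500, and 9 of the 10 genes were still higher. The median log2 fold change of the 10 genes was 1.17 in KO 2, beside -0.01 for all genes tested, and 0.58 in KO 1, beside 0.00. CRISPR Control also differed from WT at 6 of the 10 genes, with 2 higher and 4 lower, in a comparison where 27.2% of all genes were called higher and 26.3% lower. Its median over the 10 genes was 0.00, beside 0.01 for all genes.

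**Figure D1:**
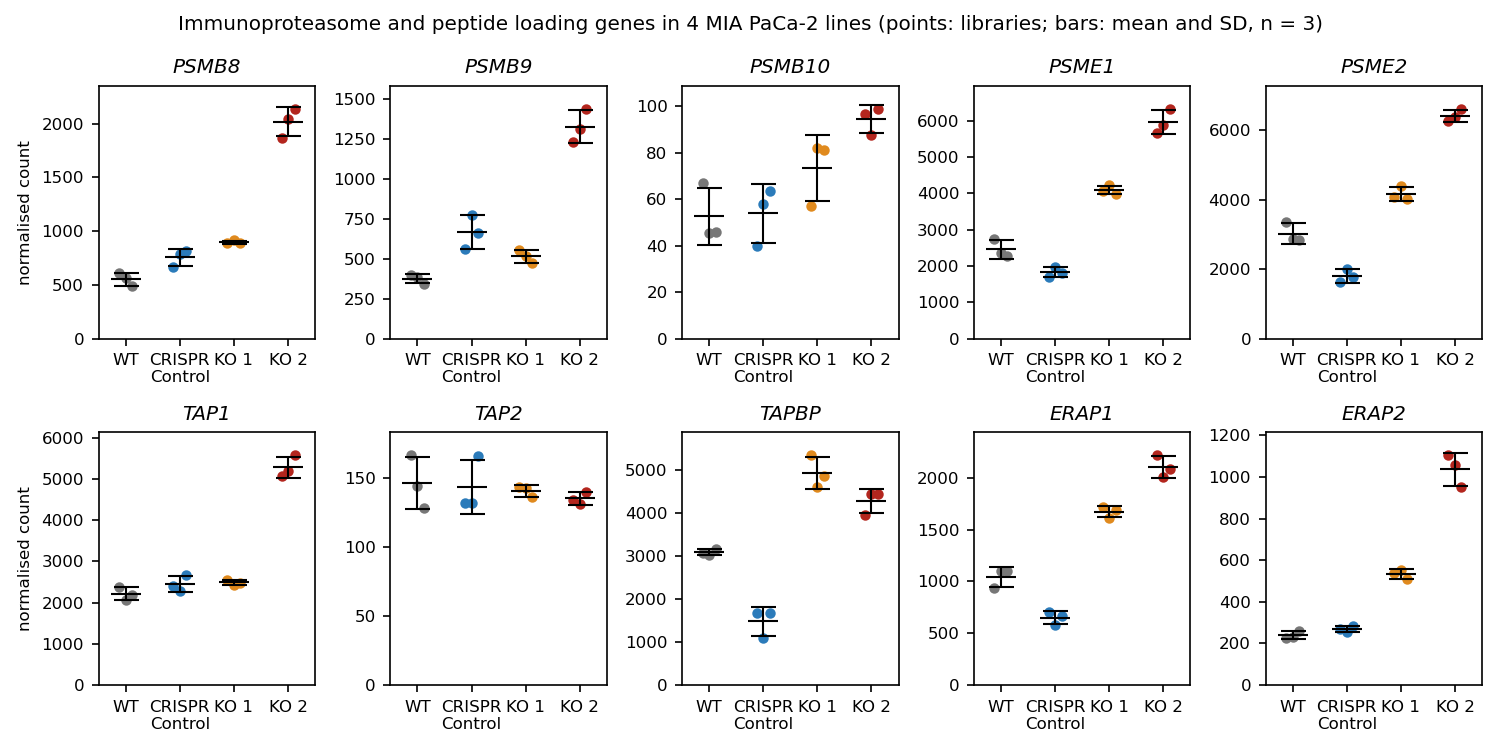
Normalised count (y axis, from 0) of each of the 10 genes in the 3 libraries of WT, CRISPR Control, KO 1 and KO 2 (x axis), with points for libraries and bars for the mean and SD. KO 2 is the highest line for 8 genes, TAPBP is highest in KO 1, and TAP2 lies between 129 and 166 in all 12 libraries.

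Sequence near the transcription start is shown for 6 of the genes, because interferon-responsive genes are known for an interferon-stimulated response element (ISRE) there. The core of that element was searched as GAAANNGAA on both strands in RefSeq windows of 300 bases around each start (GRCh38.p14). It was found for 9 of the 10 genes, all except PSMB9, and for 9.86% of the 27305 genes that had a window. A GAS element (TTCNNNGAA, an interferon-gamma activated site) was found for 2, PSMB8 and TAP1, beside 9.38%, and an NF-kB type site (GGNNTTTCC) for 2, TAP1 and TAPBP, beside 7.61%. Capitals below mark matches to the ISRE core, of which TAP1 and TAPBP each hold 2 that overlap, all sequences read 5' to 3' on the strand of the gene, and where a gene had more than 1 window the one with more matches was taken.
PSMB8 (catalytic subunit; chr6:32844028-32844127, minus strand): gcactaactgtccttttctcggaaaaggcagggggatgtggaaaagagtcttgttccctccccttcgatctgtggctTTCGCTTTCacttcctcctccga
PSME2 (activator; chr14:24146591-24146690, minus strand): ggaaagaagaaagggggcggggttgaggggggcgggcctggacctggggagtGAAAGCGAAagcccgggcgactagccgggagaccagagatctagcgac
TAP1 (transporter; chr6:32853755-32853904, minus strand): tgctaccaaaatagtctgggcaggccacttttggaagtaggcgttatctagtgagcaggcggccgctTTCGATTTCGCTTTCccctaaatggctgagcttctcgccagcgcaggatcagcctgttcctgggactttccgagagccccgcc
TAP2 (transporter; chr6:32838720-32838819, minus strand): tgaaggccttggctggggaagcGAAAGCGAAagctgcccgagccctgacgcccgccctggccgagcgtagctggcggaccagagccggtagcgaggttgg
TAPBP (tapasin; chr6:33314059-33314158, minus strand): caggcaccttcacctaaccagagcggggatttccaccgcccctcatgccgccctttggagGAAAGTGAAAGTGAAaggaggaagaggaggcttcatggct
ERAP2 (aminopeptidase; chr5:96876420-96876519, plus strand): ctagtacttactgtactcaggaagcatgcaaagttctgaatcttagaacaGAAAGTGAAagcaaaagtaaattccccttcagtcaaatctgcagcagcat

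The windows end 20 bases after the start, except that of TAP1, which ends 51 bases before it. TAP1 and PSMB9 are transcribed away from each other from RefSeq starts 488 bases apart. The TAP1 match thus lies 127 bases before the start of TAP1 and 361 bases before that of PSMB9, outside the PSMB9 window. The gene span of PSMB9 given below is from another annotation, begins further upstream and contains TAP1. The search describes letters and does not show that a factor was bound. TAP2 carries the core, and its RNA was called in none of the comparisons below.

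Of the inducible catalytic subunits, PSMB8 and PSMB9 were raised in both KO lines and also in CRISPR Control. PSMB8 (chromosome 6, 32840717 to 32844679) had normalised counts of 608, 560 and 489 in the WT libraries, 667, 785 and 815 for CRISPR Control, 887, 914 and 889 for KO 1 and 1870, 2045 and 2138 for KO 2. The 4 lines did not overlap, in the order WT, CRISPR Control, KO 1, KO 2. Relative to WT, the log2 fold change was 0.45 ± 0.10 (SE) in CRISPR Control (adjusted p = 0.000658), 0.70 ± 0.10 in KO 1 (adjusted p = 1.3e-05) and 1.87 ± 0.10 in KO 2 (adjusted p = 1.05e-11), which is 3.66-fold in KO 2. KO 1 exceeded CRISPR Control by only 0.25 (adjusted p = 0.0299), and that call was lost under quantile normalisation (adjusted p = 0.101) and when CRISPR Control replicate 1 (0.146) or KO 1 replicate 1, 2 or 3 (0.0578, 0.0803 and 0.0605) was left out.

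PSMB9 (chromosome 6, 32844136 to 32859851) had counts of 398, 385 and 341 in WT, 559, 773 and 663 for CRISPR Control, 554, 514 and 474 for KO 1 and 1230, 1312 and 1437 for KO 2. Here CRISPR Control stood above KO 1, and each of these lines lay between WT and KO 2. The log2 fold change against WT was 0.82 ± 0.11 in CRISPR Control (adjusted p = 7.1e-06), 0.46 ± 0.11 in KO 1 (adjusted p = 0.00384) and 1.82 ± 0.11 in KO 2 (adjusted p = 1.48e-10). KO 1 against CRISPR Control was the only comparison in which any of the 10 genes was lower in a KO line, at -0.36 ± 0.11 (adjusted p = 0.00954). It was no longer called without CRISPR Control replicate 2 (-0.25, adjusted p = 0.0631) or KO 1 replicate 3 (-0.30, adjusted p = 0.0506).

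PSMB10 (chromosome 16, 67934506 to 67936864) was the least abundant catalytic subunit. Its counts were 66.8, 45.5 and 45.7 in WT, 39.7, 58.1 and 63.7 for CRISPR Control, 57.3, 82.1 and 81.3 for KO 1 and 96.9, 87.7 and 98.9 for KO 2. All KO 2 libraries lay above all others, while KO 1 overlapped both competent lines. The log2 fold change against WT was 0.85 ± 0.22 in KO 2 (adjusted p = 0.00301), and in KO 1 it was 0.48 ± 0.22 and did not pass (adjusted p = 0.0994). It did pass in KO 1 without WT replicate 1 (0.66, adjusted p = 0.0428) or KO 1 replicate 1 (0.65, adjusted p = 0.0479). A further gene on the same strand, ENSG00000261884, shares 58.3% of the PSMB10 coding bases and had mean counts of 23.1 in WT, 27.9 for CRISPR Control, 14.9 for KO 1 and 10.0 for KO 2. How reads on both genes were counted is not given in the sources used here, so the level of PSMB10 is uncertain.

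Against WT, none of the constitutive subunits was called higher in a KO line. In that comparison, PSMB5 differed by -0.01 in KO 1 and 0.01 in KO 2 (adjusted p = 0.912 and 0.9). PSMB6 fell by 0.41 in KO 2 (adjusted p = 0.00105), and in KO 1 it was -0.21 (adjusted p = 0.0807). PSMB7 fell by 0.27 in KO 1 and by 0.21 in KO 2 (adjusted p = 0.00762 and 0.0236). In CRISPR Control only PSMB5 moved among them, falling by 0.58 (adjusted p = 1.32e-05). PSMB5 was higher than in CRISPR Control by 0.56 in KO 1 (adjusted p = 1.09e-05) and by 0.59 in KO 2 (adjusted p = 4.95e-06), and by 0.29 in deficient against competent lines (adjusted p = 0.000311), whereas PSMB6 and PSMB7 fell there by 0.26 and 0.24 (adjusted p = 0.00189 and 0.00048).

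Ratios within a library set each inducible subunit against the subunit it replaces. The mean log2 ratio of PSMB8 to PSMB5 was -3.96 ± 0.09 (SD, n = 3) in WT, -2.93 ± 0.06 for CRISPR Control, -3.24 ± 0.03 for KO 1 and -2.10 ± 0.06 for KO 2. For PSMB9 to PSMB6 it was -3.54 ± 0.09, -2.62 ± 0.08, -2.87 ± 0.16 and -1.31 ± 0.08 in the same order. In both pairs WT was lowest and KO 2 highest, with CRISPR Control above KO 1 on average. PSMB8 itself was higher in KO 1 than in CRISPR Control, with mean counts of 896 and 756. Its ratio stood the other way because PSMB5 was lower in CRISPR Control, at 5764 beside 8457 in KO 1. Deficient exceeded competent libraries by 0.77 for PSMB8 to PSMB5 (exact two-sided permutation test, p = 0.0476, adjusted over the 3 ratios 0.0476) and by 0.99 for PSMB9 to PSMB6 (exact permutation p = 0.0433, adjusted 0.0476). The 6 deficient and 6 competent libraries overlapped in both, and each test lost its call when any single WT or KO 2 library was left out (exact permutation, adjusted p from 0.0823 to 0.0866).

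For PSMB10 to PSMB7 the ratio was -6.67 ± 0.21 in WT, -6.65 ± 0.29 for CRISPR Control, -5.92 ± 0.25 for KO 1 and -5.61 ± 0.13 for KO 2. All 6 deficient libraries lay above all 6 competent ones, by 0.90 on average (exact permutation p = 0.00216, the smallest these splits can give; adjusted p = 0.00649). The libraries of a line share a clone, so these tests rest on 2 lines a side. Per kilobase of exon, PSMB8 made up 2.79% of the PSMB8 and PSMB5 signal in WT, 5.52% for CRISPR Control, 4.51% for KO 1 and 9.42% for KO 2, and PSMB9 made up 3.58%, 6.58%, 5.60% and 14.9% of the PSMB9 and PSMB6 signal. Length was the union of all annotated exons, 3.48 kb for PSMB8 and 3.34 kb for PSMB9 but 1.55 kb for PSMB5 and 1.45 kb for PSMB6. These shares therefore depend on the annotated transcripts and would be larger by plain counts. At the RNA level the constitutive subunit remained the more abundant of each pair in every line, also by plain counts.

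**Figure D2:**
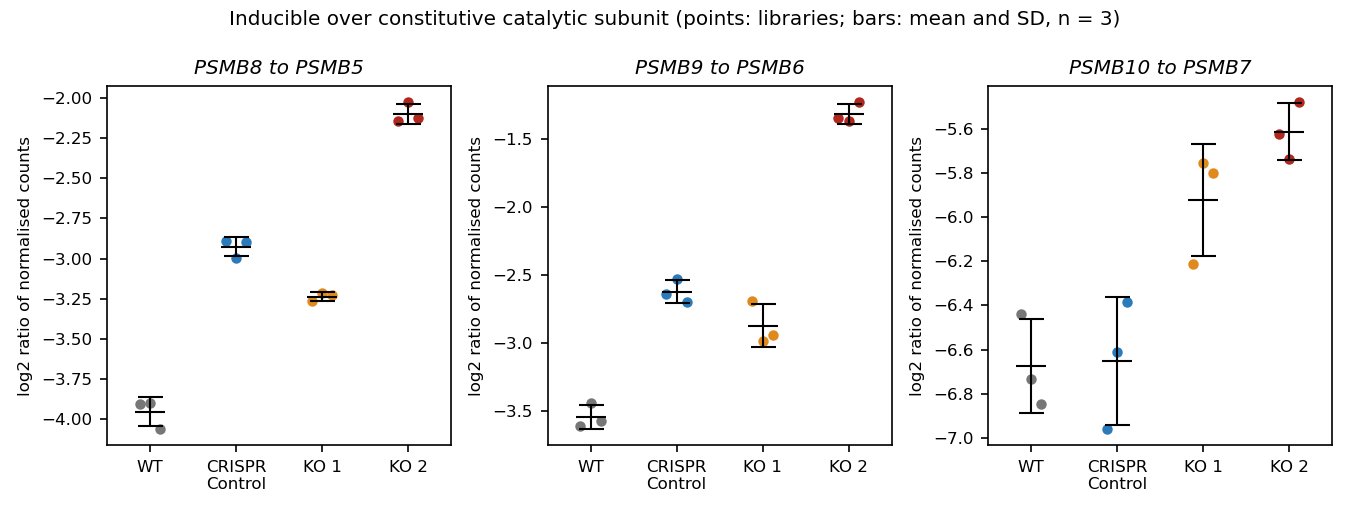
Log2 ratio of normalised counts (y axis) of PSMB8 to PSMB5, PSMB9 to PSMB6 and PSMB10 to PSMB7 in the 3 libraries of each line (x axis), with bars for the mean and SD. KO 2 is highest in all 3 panels, and CRISPR Control stands above WT in the PSMB8 and PSMB9 panels but not in the PSMB10 panel.

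Both PA28 genes were higher in the KO lines and lower in CRISPR Control. PSME1 (chromosome 14, 24136163 to 24138967) had counts of 2743, 2342 and 2277 in WT, 1689, 1969 and 1812 for CRISPR Control, 4052, 4222 and 3991 for KO 1 and 5670, 5885 and 6320 for KO 2. PSME2 (chromosome 14, 24143362 to 24147570) had 3368, 2854 and 2848 in WT, 1622, 2002 and 1774 for CRISPR Control, 4064, 4395 and 4028 for KO 1 and 6269, 6384 and 6612 for KO 2. For each gene the lines were fully separate, in the order CRISPR Control, WT, KO 1, KO 2. PSME1 was higher than in WT by 0.74 ± 0.08 for KO 1 (adjusted p = 7.89e-07) and by 1.28 ± 0.08 for KO 2 (adjusted p = 1.9e-10), and PSME2 by 0.47 ± 0.08 (adjusted p = 0.000257) and 1.09 ± 0.08 (adjusted p = 2.92e-09). In CRISPR Control, PSME1 fell by 0.43 (adjusted p = 0.00022) and PSME2 by 0.75 (adjusted p = 5.12e-07).

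The genes around PA28 were also lower in CRISPR Control. Within 1000 kb, 48 other genes were tested, of which 32 were lower and 5 higher in CRISPR Control than in WT, with a median log2 fold change of -0.61. Of these, 37 had a change further down than PSME1 and 16 further down than PSME2. PSMB5, which lies 1101 kb from PSME1 and thus outside this window, was lower there too. Against CRISPR Control the neighbours had medians of 0.82 in KO 1 and 0.92 in KO 2, whereas against WT their medians were 0.17 and 0.27. Against WT, 12 of the 48 were called higher and 1 lower in KO 1, beside 18.0% of all genes called higher. In KO 2, 23 were called higher and 6 lower, beside 27.1% of all genes called higher, and 5 of the 48 exceeded PSME1. The part of the shift shared with neighbours was not tested, for PSME1 and PSME2 in any line or for PSMB5 in CRISPR Control. The log2 fold changes of the KO lines against WT do not use the CRISPR Control mean, although its libraries enter the spread shared by the 4 lines.

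The transporter genes parted. TAP1 (chromosome 6, 32845209 to 32853816) had counts of 2387, 2075 and 2184 in WT, 2400, 2287 and 2678 for CRISPR Control, 2555, 2433 and 2485 for KO 1 and 5081, 5202 and 5575 for KO 2. KO 2 stood alone above the other lines, of which CRISPR Control overlapped both WT and KO 1. In KO 2 the log2 fold change against WT was 1.26 ± 0.08 (adjusted p = 1.1e-10), a 2.39-fold difference. In KO 1 it was 0.17 ± 0.08 (95% interval 0.01 to 0.33, adjusted p = 0.0883), and it passed when only the lines compared were fitted (adjusted p = 0.0325) or without WT replicate 1 (0.23, adjusted p = 0.0457). KO 1 differed from CRISPR Control by 0.02 (95% interval -0.14 to 0.18, adjusted p = 0.803).

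TAP2 (chromosome 6, 32821833 to 32838739), whose product pairs with that of TAP1, had counts of 166, 145 and 129 in WT, 132, 132 and 166 for CRISPR Control, 144, 143 and 136 for KO 1 and 134, 132 and 140 for KO 2. All 4 lines overlapped. The difference between deficient and competent lines was -0.06 ± 0.10, with a 95% interval from -0.27 to 0.15 (adjusted p = 0.608). Against WT it was -0.11 in KO 2 (95% interval -0.40 to 0.19), and this value was called only under quantile normalisation (-0.39, adjusted p = 0.0259). A same-strand readthrough gene, ENSG00000250264, shares 91.2% of the TAP2 coding bases and was listed at 0 in every line. If reads on both genes were left out, the TAP2 count would hold mainly its untranslated exons, and the sources used here do not state the rule. For that reason the levels of TAP1 and TAP2 were not compared with each other.

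TAPBP (chromosome 6, 33299694 to 33314284) was the gene that differed most between CRISPR Control and WT, and the single gene of the 10 that was not highest in KO 2 among those called. Its counts were 3080, 3018 and 3168 in WT, 1670, 1094 and 1685 for CRISPR Control, 5337, 4598 and 4855 for KO 1 and 3946, 4435 and 4443 for KO 2. The lines did not overlap, with CRISPR Control lowest and KO 1 highest. Against WT the log2 fold change was -1.09 ± 0.12 in CRISPR Control (adjusted p = 4.38e-07), 0.67 ± 0.12 in KO 1 (adjusted p = 0.000234) and 0.47 ± 0.12 in KO 2 (adjusted p = 0.00295). KO 2 and KO 1 differed by -0.21 (95% interval -0.46 to 0.05, adjusted p = 0.192), which passed in a fit of the KO lines alone (adjusted p = 0.0346) and without CRISPR Control replicate 2 (adjusted p = 0.0242). The 29 other genes tested within 1000 kb had a median of -0.10 in CRISPR Control against WT, and none of them was as low as TAPBP.

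ERAP1 and ERAP2, which lie side by side on chromosome 5, were both higher in the KO lines but differed in CRISPR Control. ERAP1 (96760810 to 96808100) had counts of 935, 1103 and 1097 in WT, 706, 579 and 668 for CRISPR Control, 1720, 1614 and 1692 for KO 1 and 2217, 2006 and 2082 for KO 2. ERAP2 (96875986 to 96919703) had 225, 231 and 262 in WT, 270, 256 and 281 for CRISPR Control, 538, 554 and 507 for KO 1 and 1103, 1057 and 950 for KO 2. Every KO library lay above every competent library for both genes, and KO 2 lay above KO 1. Against WT, ERAP1 rose by 0.68 ± 0.09 in KO 1 (adjusted p = 7.16e-06) and by 1.01 ± 0.09 in KO 2 (adjusted p = 1.88e-08), and ERAP2 by 1.15 ± 0.10 (adjusted p = 2.97e-08) and 2.11 ± 0.10 (adjusted p = 2.65e-12). The change of ERAP2 in KO 2, 4.32-fold, was the highest of the 10 genes against WT. Of the 7 other genes tested within 1000 kb of ERAP1, 5 were higher and none lower in KO 2 than in WT. Their median was 0.26, and 2 were at least as high as ERAP1. Of the 5 near ERAP2, 4 were higher and none lower, and none was as high as ERAP2. Among all genes tested, 27.1% were called higher in KO 2. The part of this shift in the ERAP1 and ERAP2 values was not tested.

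In CRISPR Control, ERAP1 fell by 0.68 against WT (adjusted p = 3.6e-06), whereas ERAP2 differed by 0.17 (95% interval -0.04 to 0.38, adjusted p = 0.153). Per kilobase of exon, ERAP1 exceeded ERAP2 in every line, with 132 against 34.4 in WT, 81.9 against 38.7 in CRISPR Control, 211 against 76.6 in KO 1 and 265 against 149 in KO 2. The log2 ratio of the ERAP1 to the ERAP2 count was 2.12 ± 0.11 (SD, n = 3) in WT, 1.27 ± 0.11 for CRISPR Control, 1.65 ± 0.10 for KO 1 and 1.02 ± 0.10 for KO 2. ERAP1 shares 3.80% of its exonic bases with CAST on the opposite strand, whose mean count ran from 5326 to 7094, and the strand setting of the counting is not given in the sources used here.

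**Figure D3:**
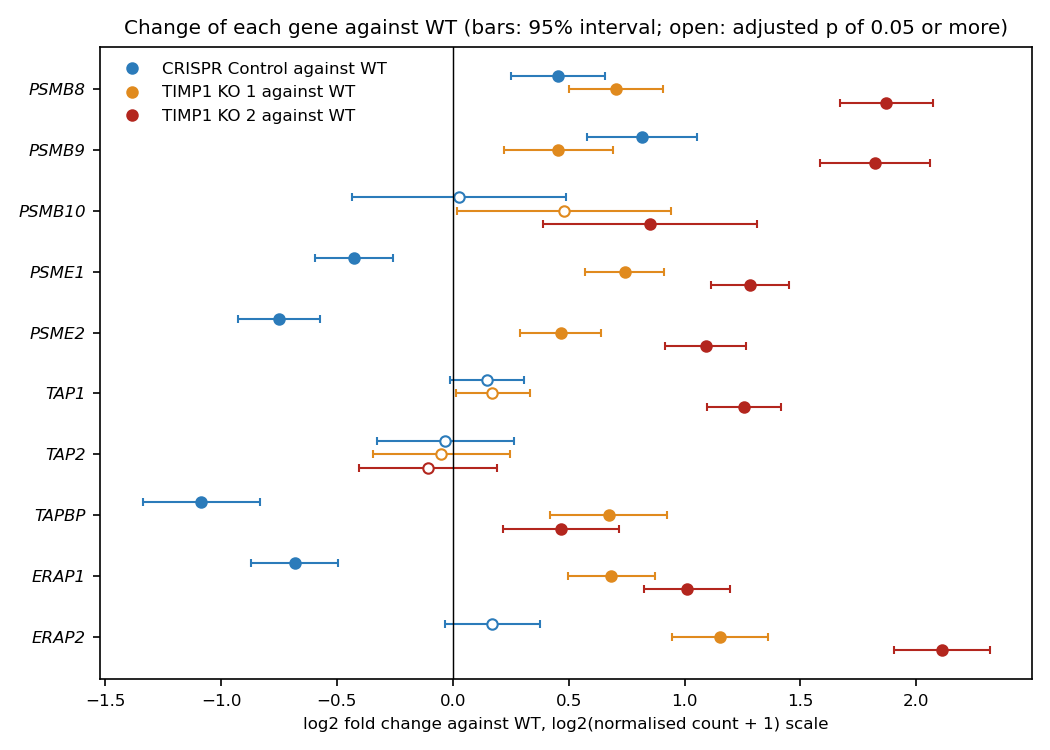
Log2 fold change against WT (x axis) of each of the 10 genes (y axis) in CRISPR Control, KO 1 and KO 2, with 95% intervals from limma and open symbols where the adjusted p was 0.05 or more. The KO 2 points lie right of 0 for all genes but TAP2, and the CRISPR Control points lie left of 0 and filled for PSME1, PSME2, TAPBP and ERAP1.

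With CRISPR Control as the reference, 9 genes were higher in KO 2 and 6 in KO 1, and 1 (PSMB9) was lower in KO 1. Among all genes, 33.3% were called higher and 34.4% lower in KO 2, and 31.7% higher and 31.3% lower in KO 1. The largest of these changes were ERAP2 at 1.94 and PSME2 at 1.84 in KO 2, and TAPBP at 1.76 and ERAP1 at 1.37 in KO 1. The values for ERAP1, TAPBP and PA28 exceed those against WT by the amount that CRISPR Control lay below WT, since the comparisons share the KO libraries. PSMB8 and PSMB9, which were raised in CRISPR Control, had smaller changes against it, at 1.42 and 1.00 in KO 2.

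The deficient lines together exceeded the competent lines at 9 of the 10 genes, where 32.9% of all genes were called higher and 33.0% lower. The values ran from 0.64 for TAP1 and 0.65 for PSMB10 to 1.23 for PSME1 and 1.55 for ERAP2, with a median of 1.09 over the 10 genes beside 0.00 for all genes. Against CRISPR Control, KO 1 was not called higher at TAP1 (0.02), PSMB9 (-0.36) or PSMB10 (0.45), whereas KO 2 was called higher at each. For 6 genes, ERAP1, ERAP2, PSMB8, PSME1, PSME2 and TAPBP, all 6 deficient libraries lay above all 6 competent ones, as did 12.3% of all genes tested. Only ERAP2 differed from WT in the same direction in both KO lines without differing between CRISPR Control and WT, a pattern shown upward by 5.0% of all genes. PSMB10 joined it when WT replicate 1 or KO 1 replicate 1 was left out.

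KO 2 exceeded KO 1 at 7 of the 10 genes, beside 18.1% of all genes higher and 20.1% lower. Equal library totals moved the calls over all genes from 2890 higher and 3210 lower to 3890 and 2046. The differences were 1.37 for PSMB9, 1.17 for PSMB8, 1.08 for TAP1 and 0.96 for ERAP2, and 0.63, 0.54 and 0.33 for PSME2, PSME1 and ERAP1. PSMB10, at 0.37 (adjusted p = 0.194), TAP2 and TAPBP did not pass. On chromosome 6 the annotated span of PSMB9 contains that of TAP1 and overlaps that of PSMB8. The 44 other genes tested within 1000 kb of PSMB8 had a median of -0.18 between KO 2 and KO 1, with 4 higher and 15 lower. The summed leukocyte markers were also higher in the KO 2 libraries, mostly through CD14 (mean 161, beside 83.0 for KO 1) and ITGAM (91.7 beside 37.2). Mean PTPRC (2.49 beside 0.36) and CSF1R (6.38 beside 1.31) were also higher for KO 2 than for KO 1, as were NKG7 and CD3E. The PTPRC counts of the KO 2 libraries were 7.46, 0 and 0. SPI1 went the other way, averaging 4.10 for KO 2, beside 5.65 for KO 1, as did CD3D. Among the 4 lines, mean PTPRC was highest for WT (5.17) and CSF1R for CRISPR Control (11.8). All of these but CD14 and ITGAM lay below the filter and were not tested. A leukocyte contribution was not tested.

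Few genes of the rest of the proteasome were called higher. Between deficient and competent lines, 32.9% of all genes tested were called higher and 33.0% lower, and the counts that follow are read beside these shares. In this comparison, 1 of 11 other 20S core subunits tested was higher (PSMB1, 0.17) and 3 were lower (PSMA4 lowest, -0.53), with a median of -0.04. Of 19 subunits of the 19S particle, which recognises ubiquitin-tagged proteins, 1 was higher (PSMC6, 0.14) and 13 were lower (PSMD6 lowest, -0.52), with a median of -0.24. Other activators and assembly factors had 2 of 8 higher, led by PSMG2 at 0.17, and 2 lower, led by PSMG1 at -0.27. Cytosolic and endosomal peptidases had 2 of 9 higher (LNPEP highest, 0.22) and 5 lower (THOP1 lowest, -0.60).

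RNA of most class I chains and their regulators was higher in deficient than in competent lines. Of 11 such genes tested 9 were higher and none lower, with a median of 0.95, led by HLA-B at 3.31. HLA-B had mean counts of 598 for WT, 2395 for KO 1 and 12990 for KO 2. Against WT, 7 of the 11 were called higher in each KO line and none lower, beside 18.0% of all genes higher in KO 1 and 27.1% in KO 2. Among 7 other loading chaperones and editors only TAPBPL, the gene of the tapasin-related editor TAPBPR, was higher, at 2.64, and 2 were lower (UGGT1 lowest, -0.36). Like TAPBP, TAPBPL was lower in CRISPR Control than in WT (-1.99, adjusted p = 2.32e-07). The counts between deficient and competent lines are read beside the 32.9% of all genes called higher and 33.0% called lower.

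**Figure D4:**
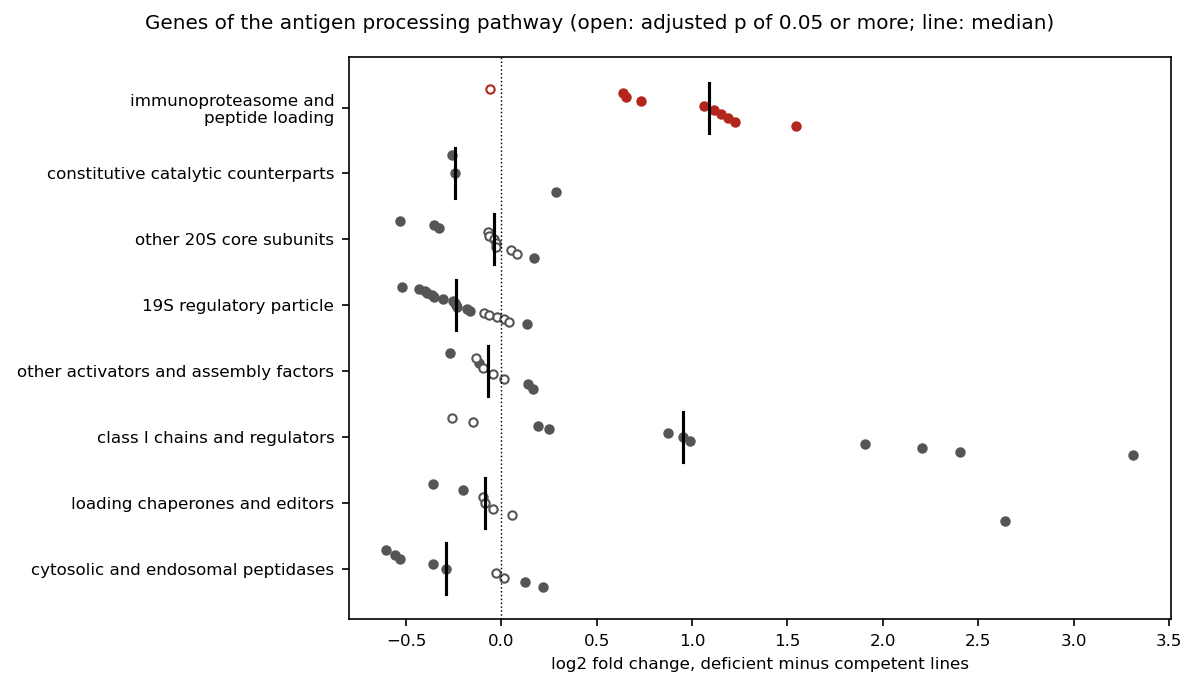
Deficient minus competent log2 change (x axis) of each tested gene of 8 groups of the antigen processing pathway (y axis), with open symbols where the adjusted p was 0.05 or more and a vertical line at each median. The medians of the immunoproteasome and peptide loading genes (1.09) and of the class I chains and regulators (0.95) lie right of 0, and those of the other groups lie between -0.29 and -0.04.

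Profiles over the 12 libraries were compared as the root mean square difference of centred log2 values. PSME1 and PSME2 were the closest of the 10 to each other, at 0.13. ERAP1 was nearest to PSME1 among the 10, at 0.21, and PSMB8 and PSMB9 were each nearest to the other, at 0.24. Among genes with a mean of at least 100, the nearest profile was MOB3C for PSME1 (0.10), DAP for PSME2 (0.10), BACH1 for ERAP1 (0.09) and ARMCX1 for ERAP2 (0.12). For PSMB8 it was GPRC5B (0.14), for PSMB9 HBEGF (0.18), for PSMB10 DAD1 (0.18), for TAP1 PPP2R5B (0.13) and for TAPBP LRRC56 (0.15). TAP2, which varied least, was nearest to RAB1B (0.08). None of the 10 was the nearest gene of another, and PSMB10, with a mean of 68.6, could not be. Among 11641 genes compared, PSME1 ranked 4 for PSME2, and PSME2 ranked 7 for PSME1. PSMB8 ranked 11 for PSMB9, and PSMB9 ranked 25 for PSMB8. For the rest, the rank of the nearest of the 10 ran from 79 for ERAP1 to 9018 for TAP2.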

How the data were processed

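RNA of 3 libraries from each of 4 lines was sequenced as read pairs. Per the labels and methods, the authors trimmed reads with Cutadapt, mapped them to GRCh38 with STAR, counted them with featureCounts and scaled the counts by DESeq2 size factors, so the deposited values are a signal, normalised counts per gene. The annotation release and strand setting are not given in the sources used here. A total of 4 columns of line means and 1 blank row were not used. Values were whole multiples of a step in each library, which returned whole reads for 100% of them within 0.01 reads. These reads gave the depth and served the edgeR and DESeq2 alternatives.

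The main test was limma 3.58.1 (R 4.3.3, trended eBayes) on log2(normalised count + 1), with 4 line means and 1 spread per gene, for genes with a mean of at least 10. Tests were two-sided, with Benjamini-Hochberg adjustment over all genes tested and a threshold of 0.05. Log2 fold changes understate those of low genes. The limma p-values measure the spread between libraries of a line, not between clones. The ratios, 3 in all, were tested by exact permutation over libraries. That test treats the libraries of all lines as exchangeable, although those of a line share a clone. Alternatives were pseudocounts of 0.5 and 10, a minimum mean of 50 or none, equal library totals, quantile normalisation, fits of the compared lines alone, a replicate block, leaving out each library, edgeR 4.0.16 and DESeq2 1.42.0. The limma step was tested on simulated data.

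Gene spans and shared exons are from GENCODE release 44, and promoter windows are from RefSeq (GRCh38.p14), for which all 10 genes matched. Named genes were the 10, the 3 constitutive subunits, the highest and lowest called gene of each group, overlapping genes and the nearest profiles. Transcription factors were compared as a further group, whose counts are not reported here. The genes and groups were chosen with earlier results of these data known, so their counts are no independent evidence of direction.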

Additional observations from a re-analysis of the deposited data

Results flagged for a closer look

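The change against WT differed between the KO lines at 7 of the 10 genes, by the limma test of KO 2 against KO 1. KO 2 minus KO 1 was 1.37 for PSMB9, 1.17 for PSMB8, 1.08 for TAP1, 0.96 for ERAP2, 0.63 for PSME2, 0.54 for PSME1 and 0.33 for ERAP1 on the log2 scale, with adjusted p from 2.14e-09 (TAP1) to 0.00704 (ERAP1). Among all genes tested, 18.1% were called higher and 20.1% lower in this comparison. All 3 KO 2 libraries lay above all 3 KO 1 libraries at each of the 7 genes. The share of all genes that separate in this way was not counted, so the separation adds nothing to the calls. The cause was not tested, and the edit and the clone cannot be told apart.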

How the results depend on the processing

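Of the 10 genes, the number called in each comparison of lines stayed within 1.5 times of that reported under the alternatives run. With all libraries they were 7 to 8 for KO 1 against WT, 9 to 10 for KO 2 against WT, 6 for CRISPR Control against WT and 9 for deficient against competent lines, and with each library left out they were 7 to 9, 9, 6 to 7 and 9. KO 1 against CRISPR Control varied most, at 6 to 7 with all libraries and 5 to 8 with each left out. KO 2 against CRISPR Control stayed at 9, and KO 2 against KO 1 at 7 to 8. Of the alternative values for single genes, 1497 kept their direction and side of the threshold, 15 changed direction, 11 gained a call and 7 lost one. The direction changed only for differences that were not called. For PSMB10 in CRISPR Control against WT it turned to -0.022 under quantile normalisation and ran from -0.105 to 0.229 with a library left out. For TAP2 it turned to 0.041 and 0.044 under equal library totals in KO 2 against CRISPR Control and against KO 1, and leaving out a library gave -0.142 to 0.062 in CRISPR Control against WT, -0.138 to 0.046 in KO 1 against WT, -0.072 to 0.094 in KO 1 against CRISPR Control and -0.13 to 0.036 in KO 2 against CRISPR Control. For TAP1 in KO 1 against CRISPR Control it was -0.026 to 0.088. The number of the 10 that passed in both KO lines but not in CRISPR Control was 1 to 2 with a library left out. The ratio of PSMB8 to PSMB5 then ran from 0.65 to 0.89 and that of PSMB9 to PSMB6 from 0.82 to 1.17. Equal library totals raised the share of higher genes among all called from 49.3% to 59.9% in KO 2 against WT and from 47.4% to 65.5% in KO 2 against KO 1, where the lower genes went from 3210 to 2046, and moved the median of all genes in KO 2 against CRISPR Control to 0.11. The cause was not tested.

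Libraries with the same replicate number did not pair: the correlation of their deviations ran from -0.13 to 0.16 over 18 pairs, and 2 exceeded 0.1. With a replicate block the PSMB8 to PSMB5 difference stayed 0.77 and that of PSMB9 to PSMB6 0.99, but neither passed (exact permutation within replicate numbers, adjusted p = 0.0833), and no other call was lost or gained. PSMB10 had the lowest counts of the 10 and the widest 95% interval in KO 1 against WT, 0.02 to 0.94. Levels of PSMB10 and TAP2 depend on how reads shared with overlapping genes were counted.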
